A study of Homo sapiens with 32 samples.

Results

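The mitochondrial ribosomal protein genes are the nuclear genes for the proteins of the ribosome inside mitochondria. Members were all protein-coding genes of the GRCh37 annotation whose name is MRPL or MRPS followed by a number and at most 1 letter from A to C. This gave 78 of 19529 protein-coding genes, 49 named for the large subunit (MRPL) and 29 for the small subunit (MRPS). The rule uses gene names alone.

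The study asked where on RNA the mRNA export factors sit, using iCLIP: UV light links bound protein to RNA in the cells, the protein is precipitated, and the linked base is read from where reverse transcription stopped. The cells were HEK293T FlpIn, an established human embryonic kidney line that takes a transgene at a fixed recombination site. There were 3 libraries each of Alyref-FLAG, Chtop-FLAG, Nxf1-FLAG and a Control line with an empty FLAG construct, from 32 sequencing runs, all precipitated with an anti-FLAG antibody. Alyref and Chtop belong to TREX, the complex that couples transcription to mRNA export, and Nxf1 is the export receptor. Expression was induced for 48 h with tetracycline, 10 ng/mL in the Alyref and Chtop lines and 5 ng/mL in the Nxf1 line, and the labels give no dose for the Control. All groups carried the stable FLAG transgene of a single cell line, so the factors seen are tagged copies made beside the endogenous proteins. The labels do not say whether the libraries of a group came from separate cultures, so the p-values measure only the spread between libraries.

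The mitochondrial ribosome makes the few membrane proteins that mitochondrial DNA encodes, all of them parts of the respiratory chain or of ATP synthase. Its RNA is mitochondrial, but all its proteins are encoded in the nucleus, so their mRNAs are spliced, exported through nuclear pores and translated in the cytosol before the proteins are imported. Some of these proteins have counterparts in bacterial ribosomes and others are found only in mitochondria.

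A tag is 1 deduplicated read at a crosslinked base, and levels scaled to the tags of a library are given as CPM, with all tags of the library as the total. Libraries held 7017 to 631704 tags, with the fewest in replicate 1 of each group. Of the tags, 60.7% to 86.7% lay in a single annotated gene on the strand of the tag. All 4 HEK293T markers (PAX2, LIN28B, NEFL, NEFM) had tags, with sums of 6 to 83 tags in Alyref libraries, 2 to 54 in Chtop, 1 to 23 in Nxf1 and 1 to 7 in Control. Of 5 genes of other cell types 4 had tags, with sums of 4 to 19 in Alyref, 4 to 11 in Chtop, 0 to 4 in Nxf1 and 0 in all Control libraries, and INS had none. A tag count depends on how much of an RNA the cells hold as well as on how much of it was bound, and these cannot be told apart here, since no RNA level was used.

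The members together held 4737 tags in a single gene. Alyref libraries gave 146, 1248 and 1133 of them (replicates 1, 2 and 3), Chtop 57, 867 and 634, Nxf1 12, 282 and 220, and Control 10, 87 and 41. Tags were found on 76 members in Alyref, 76 in Chtop, 73 in Nxf1 and 46 in Control, and 73 members had tags of all 3 factors. The median member had 25 tags in Alyref, 12.5 in Chtop, 5 in Nxf1 and 1 in Control, so most members were sampled thinly. The 10 members with most tags held 38.3% of all member tags. The members are short genes, with a median canonical mRNA of 1242 nt in 5 exons against 2906 nt in 8 exons for other protein-coding genes.

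Not every member could be counted. MRPL53 and MRPS17, proteins of the large and small subunit, had no tag in a single gene in any library, because every tag on them also fell in an overlapping gene on the same strand. MRPS6, a small subunit protein with a bacterial counterpart, kept 4 tags, while 716 were shared with an overlapping gene. MRPL54 had 9 tags, and the remaining 74 members had 10 or more. In all, 13 members had 1272 tags shared with other genes, and MRPS25 had 384 of these. Of 79 annotated pseudogenes named after 36 members, 9 held 23 tags in all, though unique mapping may have removed reads that match both copies.

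As a share of all tags in protein-coding genes, the members took 0.252% ± 0.0128 (SD, n = 3) in Alyref, 0.195% ± 0.00423 (SD, n = 3) in Chtop, 0.246% ± 0.0705 (SD, n = 3) in Nxf1 and 0.225% ± 0.0403 (SD, n = 3) in Control. The Alyref libraries were at 0.266%, 0.243% and 0.246% and the Chtop libraries at 0.194%, 0.199% and 0.191%, so these groups did not overlap. Nxf1 and Control spread from 0.199% to 0.327% and from 0.189% to 0.268%, across both. In cytosolic ribosomal protein genes Alyref and Chtop did not overlap either, at 0.480% to 0.513% and 0.160% to 0.279%. The higher Alyref share was thus not particular to the members. Large subunit members differed between Alyref and Chtop, with 0.149% ± 0.0256 (SD, n = 3) against 0.0876% ± 0.00601 (SD, n = 3). Small subunit members were at 0.102% ± 0.0129 (SD, n = 3) and 0.107% ± 0.00443 (SD, n = 3), within the spread. MRPS25, the member with most tags, weighed on the Chtop value, and without it the small subunit was at 0.0913% ± 0.0144 (SD, n = 3) in Alyref and 0.0839% ± 0.0127 (SD, n = 3) in Chtop, still within the spread. Subunits were taken from the gene names. MRPS30, which sits in the large subunit in structures, thus stayed in the small subunit sum, with 72 Alyref and 103 Chtop tags. Shares without it were not computed, so no contrast between the subunits is drawn. No test was made of these sums. Counted over the merged exons of all isoforms the Alyref share was 0.294%, the Chtop share 0.206% and the Nxf1 share 0.352%, and without MRPS25 the Chtop share was 0.172%.

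The position of the tags along the members differed far more between Alyref and Chtop than their number. Of exonic tags, 60.6% ± 1.79 (SD, n = 3) lay before the last exon in Alyref and 29.1% ± 1.14 (SD, n = 3) in Chtop. The Alyref libraries gave 61.2%, 62.0% and 58.6%, on 80, 702 and 613 exonic tags. The Chtop libraries gave 28.1%, 30.4% and 28.9%, on 32, 428 and 391. These groups were far apart in every library. Nxf1 was at 14.3%, 41.5% and 39.5%, with 7 exonic tags in its first library, and Control at 0%, 36.8% and 42.9% on 5, 19 and 7 exonic tags. Too few tags stood behind the Control to place it.

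The same shares in all other protein-coding genes were 67.5% ± 1.26 (SD, n = 3) in Alyref and 48.1% ± 2.31 (SD, n = 3) in Chtop. Members were therefore lower than other genes in both factors, with no overlap of libraries, and the gap was wider in Chtop. These shares are not scaled for exon length. Over genes with at least 3 exons, members had 9824, 29637 and 93764 nt in first, middle and last exons. Other genes had 3939166, 24211524 and 33427312 nt, so last exons were a smaller part of them. Per length, given below, members' first and middle exons stood further above their last exons in Alyref than those of other genes. The lower Alyref share therefore did not hold per length. In Chtop, members had 9.62, 5.12 and 5.59 CPM per kb in first, middle and last exons. Other genes had 8.41, 8.73 and 7.94. First exons stood further above last exons in members than in other genes, while middle exons did not. A lower Chtop share, or a wider gap in Chtop, was thus not shown per length. The unscaled shares of related gene sets lay above those of other genes. The 86 nuclear genes of the respiratory chain were at 75.05% ± 1.90 (SD, n = 3) in Alyref and 56.5% ± 2.20 (SD, n = 3) in Chtop, and the 81 cytosolic ribosomal protein genes at 82.9% ± 0.529 (SD, n = 3) and 72.4% ± 7.99 (SD, n = 3). These differences between gene sets were not tested.

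**Figure D1:**
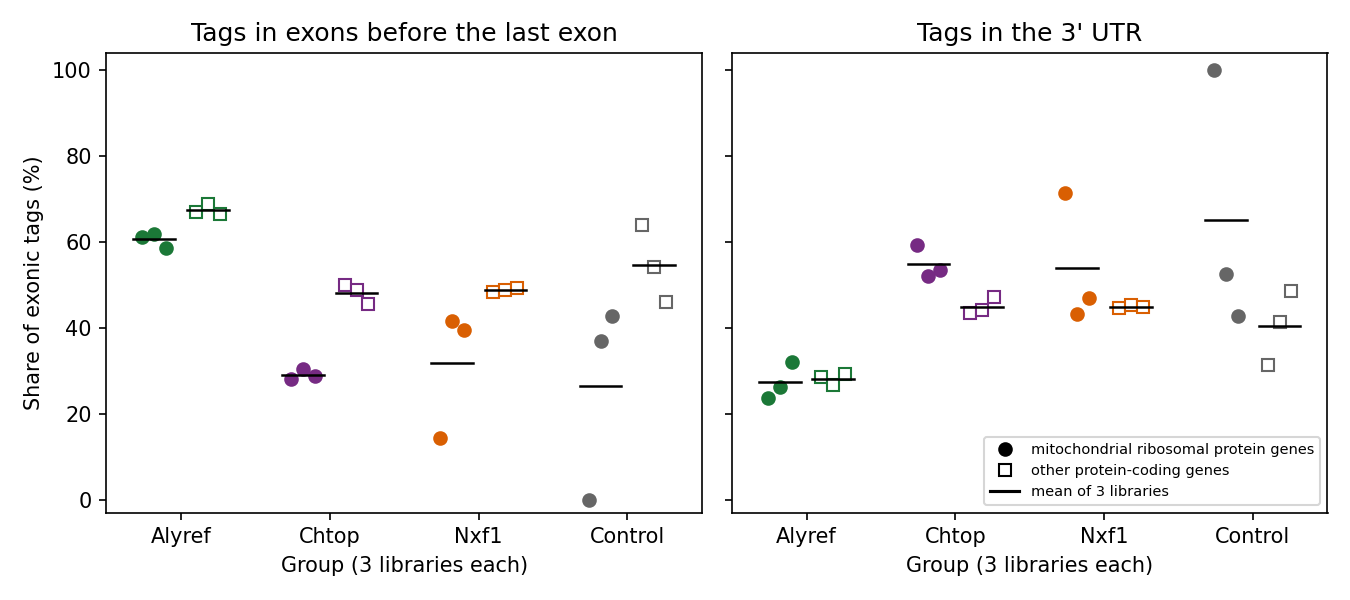
Share of exonic tags (%) in exons before the last exon (left) and in the 3′ UTR (right), by group on the x axis; each point is 1 library, filled for the 78 members and open for other protein-coding genes, and bars are means of 3 libraries. The members' Alyref points lie at 58.6% to 62.0% and the Chtop points at 28.1% to 30.4% in the left panel, while the Nxf1 and Control points spread widely.

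The 3′ UTR held 27.4% ± 4.31 (SD, n = 3) of the members' exonic tags in Alyref and 55.0% ± 3.87 (SD, n = 3) in Chtop, against 28.2% ± 1.29 (SD, n = 3) and 45.0% ± 1.96 (SD, n = 3) in other genes. The 5′ UTR held 9.99% ± 0.845 (SD, n = 3) in Alyref and 3.16% ± 0.147 (SD, n = 3) in Chtop, against 7.93% ± 0.194 (SD, n = 3) and 5.32% ± 0.265 (SD, n = 3). Alyref and Chtop did not overlap in either share. Of Nxf1's exonic tags on members, 53.9% ± 15.3 (SD, n = 3) were in the 3′ UTR, a spread that reached down to 43.3% and up to 71.4%.

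Per length, first exons of members were the most densely tagged part. Over the 71 members with at least 3 exons, Alyref had 21.7 CPM per kb in first exons (95% exact Poisson interval 19.3 to 24.4), 14.2 in middle exons (13.0 to 15.4), 4.12 in last exons (3.77 to 4.50) and 0.572 in introns (0.535 to 0.611). Chtop had 9.62 in first exons (7.79 to 11.8), 5.12 in middle exons (4.34 to 5.99), 5.59 in last exons (5.12 to 6.08) and 0.309 in introns (0.278 to 0.342). Nxf1 had 13.3 in first exons (9.49 to 18.1), 7.04 in middle exons (5.42 to 8.99) and 5.15 in last exons (4.35 to 6.05). Pooled over members, all 3 factors were thus densest in first exons, and only for Alyref did middle exons stand far above last exons. For Chtop, exon 1 of MRPS30 and exon 1 of MRPL37 held 30 and 17 of the 96 first-exon tags. The Chtop density in first exons therefore rests in large part on these genes and not on the set. The Control had 3.37 (0.695 to 9.85), 2.61 (1.05 to 5.37) and 2.00 (1.17 to 3.20) in first, middle and last exons and 0.894 (0.723 to 1.09) in introns. In other genes Alyref was at 9.55, 9.42 and 3.66 and Chtop at 8.41, 8.73 and 7.94 in first, middle and last exons, without the rise in first exons. The rise was not particular to the members. Cytosolic ribosomal protein genes had 109, 43.4 and 5.99 CPM per kb in first, middle and last exons in Alyref and 23.5, 17.4 and 4.60 in Chtop. Respiratory chain genes had 30.1, 20.8 and 3.64 in Alyref, while in Chtop their middle exons were densest, with 6.03, 11.4 and 4.13. All such intervals cover counting error only, not the spread between libraries.

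With the spliced mRNA cut into 10 equal lengths, the most 5′ of these held 29.9% of the members' exonic Alyref tags, 11.99% of their Chtop tags and 16.2% of their Nxf1 tags. In other genes it held 19.5%, 11.7% and 12.7%. The members' excess at the 5′ end was therefore large in Alyref and close to nil in Chtop. Counted over the first 200 nt the members had 29.4% ± 4.06 (SD, n = 3) in Alyref and 13.2% ± 1.49 (SD, n = 3) in Chtop, against 10.2% and 4.64% in other genes, whose longer mRNAs make the same window a smaller part. Short middle exons are common in members: 43.6% of their 257 middle exons are under 100 nt, against 32.6% in other genes. These short exons make up 26.3% of the members' middle-exon bases, and held 28.2%, 29.6% and 32.0% of the middle-exon tags in the Alyref libraries and 50%, 25% and 7.35% in the Chtop libraries. The Chtop libraries had 154 such tags in all. The 50% is from Chtop 1, which had 32 exonic tags on members, while Chtop 2 and Chtop 3 lay below every Alyref library. In other genes short exons make up 15.4% of middle-exon bases and held 21.0% of the Alyref and 9.97% of the Chtop tags.

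**Figure D2:**
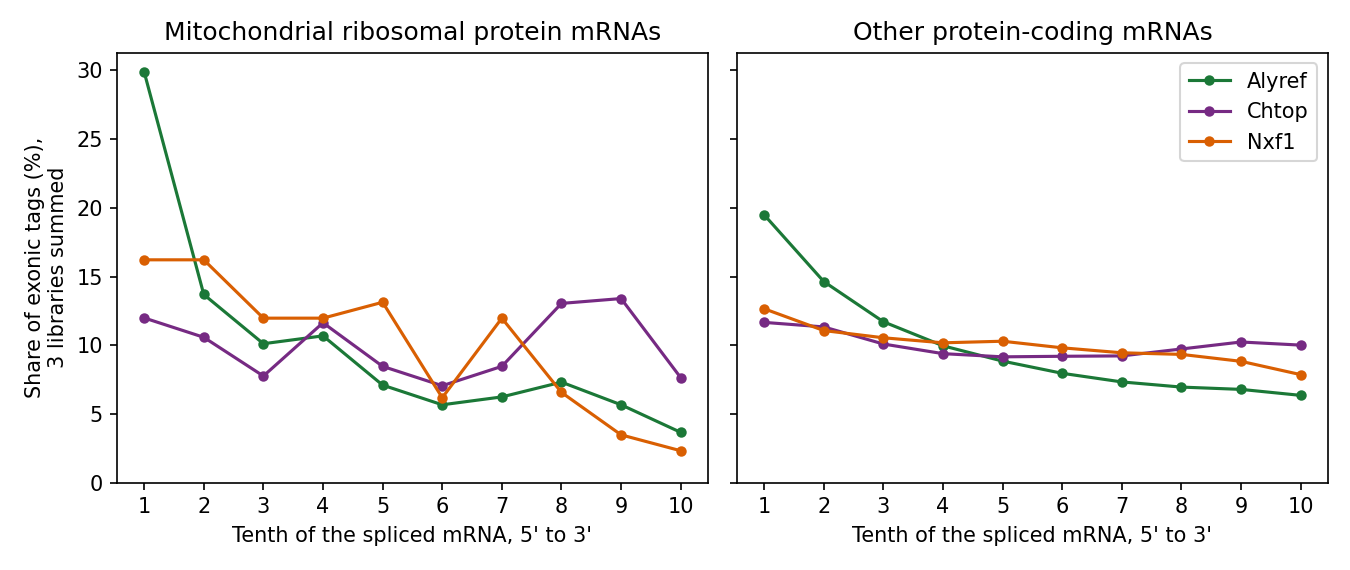
Share of exonic tags (%, 3 libraries summed) in each of 10 equal lengths of the spliced canonical mRNA from 5′ to 3′, for the members (left) and other protein-coding genes (right); lines are Alyref, Chtop and Nxf1. Alyref starts at 29.9% at the 5′ end of the members' mRNAs and at 19.5% in other mRNAs, while Chtop starts near 12% in both.

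Member by member the direction was mostly the same. Of 48 members with at least 5 exonic tags in both factors, 42 had a larger share before the last exon in Alyref, 5 a smaller one and 1 an equal one. The median share was 52.9% in Alyref and 19.1% in Chtop, with a median difference of 26.5 percentage points. Of 9342 other genes compared in this way 81.7% were higher in Alyref, with a median difference of 16.8 points, against 87.5% of the members. The direction was therefore that of protein-coding genes in general.

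Single members were tested with edgeR's exon usage test on the 6 Alyref and Chtop libraries, which asks whether the ratio of tags before the last exon to tags in the last exon differs. With at least 30 tags required, 27 members were among 7187 genes tested, and 4 members were called at a Benjamini-Hochberg adjusted p under 0.05, all with the larger share before the last exon in Alyref. This was 14.8% of the members tested, below the 28.8% of all genes called in that direction. In the opposite direction 0.167% of all genes and 0 members were called. At an unadjusted p under 0.05 there were 6 members, and 23 of 27 leaned towards Alyref. The median shift was 1.91 on the log2 scale for members and 1.41 for all genes.

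The 4 called members were MRPL42, MRPS27, MRPS26 and MRPL32. MRPL42, a protein found only in mitochondrial ribosomes, has 6 exons, and its last exon is 15039 nt long. Before the last exon it had 4, 21 and 20 Alyref tags (replicates 1, 2 and 3) and 0 Chtop tags in each library. In the last exon it had 2, 17 and 27 Alyref tags and 3, 24 and 17 Chtop tags. The last exon was thus tagged alike by both, and the exons before it by Alyref and not detectably by Chtop. Against a floor of 3 Chtop tags over the group, the ratio of tags before the last exon to tags in it was at least 14.3-fold higher in Alyref. The fitted log2 shift of 6.87 (edgeR usage test, adjusted p = 1.5e-06) depends on the prior count. Exon 2, of 164 nt, held 24 of the Alyref tags, exon 3 held 11, exon 4 held 8 and exon 5 held 2. Nxf1 had 2 tags before the last exon and 27 in it. Part of the last exon carried tags of all 4 groups in a T-rich stretch, shown here because it is the most tagged window of this member (GRCh37 chr12:93897151-93897180, plus strand, 3′ UTR, 13 tags, of which 7 Alyref, 3 Chtop, 2 Nxf1 and 1 Control). Capitals mark bases with at least 1 tag of any group, here and in the other 30-base windows.
MRPL42: aaaactgAtttTTttTTTtTTTtaaagaaa

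MRPS27, a small subunit protein with pentatricopeptide repeats, has 11 exons. Alyref gave 2, 24 and 16 tags before the last exon and 0, 7 and 6 in it, and Chtop gave 2, 2 and 1 before it and 0, 13 and 16 in it. The balance was opposite in replicates 2 and 3, while replicate 1 had too few tags to show one. The ratio was 18.7-fold higher in Alyref (95% exact interval 5.46 to 72.0, tags of 3 libraries summed), with a fitted log2 shift of 4.06 and an adjusted p of 6.67e-05 in the edgeR usage test. Exons 1 to 5 held 9, 6, 12, 6 and 5 of the Alyref tags, so most lay in the 5′ part of the mRNA. The most tagged window of MRPS27 lies in exon 3, in coding sequence (GRCh37 chr5:71593472-71593501, minus strand), and all 8 tags in it were from Alyref.
MRPS27: aTtTgagagaaagttGcctgttagtTcTtT

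MRPS26, a small subunit protein found only in mitochondria, had an exonic tag density of 34.5 ± 34.7 CPM per kb (SD over the 9 factor libraries), or 23.7 ± 13.0 without Nxf1 1, which held 12 member tags. Alyref gave 1, 8 and 9 tags before the last exon and 0, 9 and 5 in it, and Chtop gave 0, 2 and 0 before it and 2, 12 and 18 in it. The ratio was 20.6-fold higher in Alyref (3.88 to 196), with a log2 shift of 4.16 and an adjusted p of 0.000916 in the edgeR usage test. Its densest window was in the 3′ UTR of exon 4 (GRCh37 chr20:3028665-3028694, plus strand), with 7 Chtop and 2 Alyref tags, and is shown as a Chtop-rich contrast to the Alyref window of MRPS27.
MRPS26: CaCttggTcaGaAacttCcaaacgCagtgC

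MRPL32, a large subunit protein that is cut to its mature form after import, had 4, 7 and 6 Alyref tags before the last exon and 0, 2 and 5 in it. Chtop had 1, 0 and 0 before it and 1, 3 and 4 in it. The ratio was 19.4-fold higher in Alyref, with an interval of 1.82 to 911 that reflects a single Chtop tag, and the log2 shift was 3.88 (edgeR usage test, adjusted p = 0.0212). Exon 1, of 141 nt, held 13 Alyref and 0 Chtop tags. Its most tagged window is in coding sequence (GRCh37 chr7:42972073-42972102, plus strand) with 5 tags, all Alyref.
MRPL32: aagCtTccgcagagccggccgggcTTtccc
The calls of MRPL42, MRPS27 and MRPS26 held in all 6 fits that left out 1 library. MRPL32 reached 30 tags in 2 of these fits and was not called without Chtop 2 (adjusted p = 0.116).

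**Figure D3:**
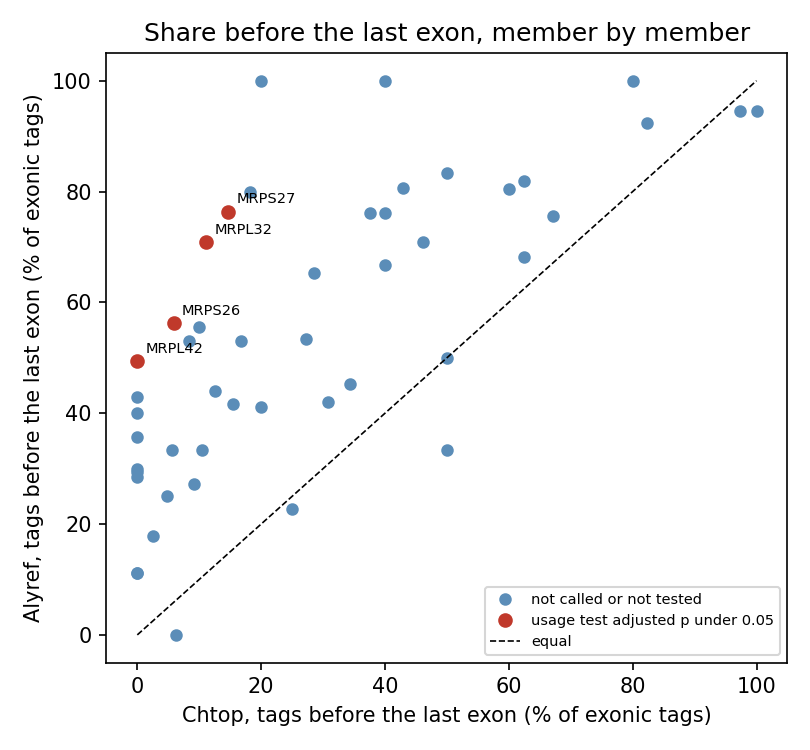
Share of exonic tags before the last exon (%) in Chtop (x) and Alyref (y), with 1 point for each of the 48 members that had at least 5 exonic tags in both factors; red marks the 4 members called in the usage test. Of the points, 42 lie above the dashed line of equal shares.

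**Figure D4:**
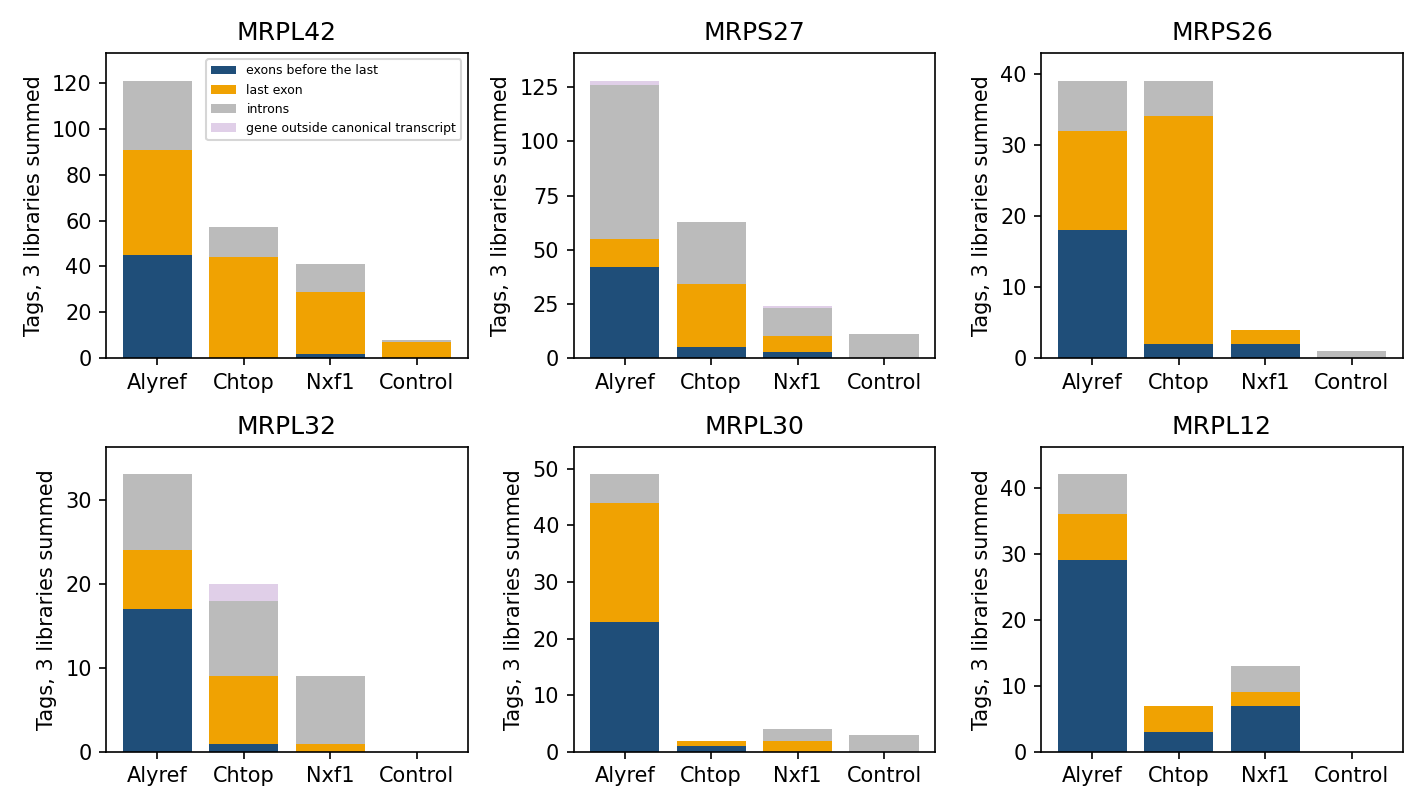
Tags of 6 members by part of the gene (exons before the last, last exon, introns, gene outside the canonical transcript), 3 libraries of a group summed, as stacked bars by group; the y axes differ. The dark part, exons before the last, is large in Alyref and small or absent in Chtop, while the last exon of MRPS26 holds 32 Chtop and 14 Alyref tags.

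Tags per gene were next compared between all pairs of groups in a single edgeR quasi-likelihood fit of the 12 libraries. The filter on low counts left 3 members, MRPL42, MRPS27 and MRPL45, among 3369 genes, so 75 members were not tested. The 6 comparisons share libraries. Alyref against Control had 0 members called in either direction, where 0% of all genes were called higher in Alyref and 0.119% higher in Control. Chtop against Control had 0 members called higher in Chtop, against 8.9% of all genes, and 1 called higher in Control, against 5.58%. Nxf1 against Control had 0 members called, against 0% of all genes higher in Nxf1 and 0.0297% higher in Control.

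Alyref against Chtop had 0 members called, where 5.97% of all genes were higher in Alyref and 9.97% higher in Chtop. Alyref against Nxf1 had 0 called, against 3% higher in Alyref and 1.81% higher in Nxf1. Chtop against Nxf1 had 0 members called higher in Chtop, against 15%, and 1 called higher in Nxf1, against 10.6%. In each of the 6 comparisons 1 of the 3 members had an unadjusted p under 0.05. DESeq2, where it gave adjusted p-values for members, called 0 for Nxf1 against Control, 0 for Alyref against Chtop and 1 for Chtop against Nxf1. With 3 members tested these counts say little about the set.

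MRPL45, a large subunit protein near the exit of the peptide tunnel, had 2, 26 and 18 tags in Alyref, 0, 5 and 5 in Chtop, 0, 4 and 4 in Nxf1 and 1, 12 and 4 in Control. Scaled to depth the Control was highest. MRPL45 passed the filter on low counts of this fit through its Control libraries alone. Its differences from Control carry that selection. The log2 fold change of Chtop over Control was -4.22 (SE 0.84, edgeR adjusted p = 0.00157), and that of Alyref over Control was -2.56 (SE 0.72, adjusted p = 0.0825, and 0.0452 with the replicate number as a block). Without Control 2, which held 12 of the 17 Control tags, Chtop over Control was -3.48 (adjusted p = 0.066). All 17 Control tags were intronic, and with exonic tags only MRPL45 was not tested and no member was called in Chtop against Control.

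MRPL42 had 8, 60 and 53 tags in Alyref, 3, 34 and 20 in Chtop, 1, 23 and 17 in Nxf1 and 1, 7 and 0 in Control. Chtop was lowest relative to depth among the factors. The log2 fold change of Chtop over Nxf1 was -1.48 (SE 0.42, edgeR adjusted p = 0.0107). The call was lost without Chtop 3 (adjusted p = 0.0513) and without Nxf1 2 (adjusted p = 0.168), and with the filter on low counts removed (adjusted p = 0.184). MRPS27 had 6, 68 and 54 tags in Alyref, 4, 37 and 22 in Chtop, 1, 11 and 12 in Nxf1 and 0, 7 and 4 in Control, and was called in no comparison, with adjusted p-values of 0.217 to 0.965.

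A fit of the 6 Alyref and Chtop libraries alone, added after seeing how few members passed above, tested 31 members among 8774 genes. Called higher in Alyref were 4 members, 12.9% of those tested, against 6.96% of all genes. Called higher in Chtop were 2 members, 6.45%, against 9.49% of all genes. The median log2 fold change of Alyref over Chtop was 0.53 for members and 0.02 for all genes, and 24 of 31 members were above 0. MRPL30, MRPL12 and MRPL45 had at most 5 tags in any Chtop library and passed the filter on low counts through their Alyref libraries alone. The share called higher in Alyref, this median and the count above 0 carry that selection and say little about the set. The calls of MRPL30, MRPL12 and MRPL45 carry it as well. The counts depended on single libraries: without Alyref 2 only 1 member was called, without Alyref 3 there were 2 and without Chtop 3 there were 3.

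MRPL30, a large subunit protein with a bacterial counterpart, differed most. It had 4, 20 and 25 tags in Alyref, 0, 1 and 1 in Chtop, 0, 3 and 1 in Nxf1 and 0, 1 and 2 in Control. Every Alyref library stood above every Chtop library. Scaled to library depth the Alyref level was 18.9-fold the Chtop level (95% exact interval 4.96 to 160), and the fitted log2 fold change was 3.99 (SE 0.73, edgeR adjusted p = 0.00104). It was called in all 6 fits that left out 1 library, with adjusted p-values of 0.00131 to 0.0423. Exon 2, of 78 nt, held 13 Alyref tags and 0 of the other groups, the last exon of 3989 nt held 21 Alyref, 1 Chtop and 2 Nxf1 tags, and exon 1 held 6 Alyref and 1 Chtop tags. The window of exon 2 with most tags spans the end of the 5′ UTR and the start of the coding sequence (GRCh37 chr2:99802660-99802689, plus strand), with 12 tags, all Alyref, each at a base of its own.
MRPL30: TAcaCtTatggctgggaTtTTGcGctTaGT

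MRPL12, which forms the flexible stalk of the large subunit, had 3, 21 and 18 tags in Alyref, 0, 3 and 4 in Chtop, 1, 7 and 5 in Nxf1 and 0 in each Control library, where 3 tags, the limit a count of 0 allows, correspond to 64.3 to 428 CPM. Alyref lay above Chtop in every library. The log2 fold change of Alyref over Chtop was 2.09 (SE 0.59, edgeR adjusted p = 0.0184). It was not called without Alyref 2 (adjusted p = 0.157), Alyref 3 (0.161) or Chtop 2 (0.113). Exons 1 and 2 held 11 and 14 of the Alyref tags and 1 and 2 of the Chtop tags. The most tagged window, in the coding sequence of exon 2, held 4 Alyref, 2 Chtop and 4 Nxf1 tags (GRCh37 chr17:79671375-79671404, plus strand) and is shown as one that all 3 factors entered.
MRPL12: aGTAccCccccaaGATacagcagctGgTcc

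MRPL45 was higher in Alyref than in Chtop by 1.70 on the log2 scale (SE 0.53, edgeR adjusted p = 0.0305) in this fit, and MRPS28, a small subunit protein, by 1.72 (SE 0.54, adjusted p = 0.0305). MRPS28 had 1, 21 and 30 tags in Alyref, 1, 8 and 2 in Chtop, 0, 3 and 14 in Nxf1 and 0, 3 and 2 in Control. Replicate 1 of Alyref and of Chtop had 1 tag each, so these groups overlapped in tags. Of its 85 tags 79 were intronic. MRPL45 was not called without Alyref 2 (adjusted p = 0.289), Alyref 3 (0.181), Chtop 2 (0.131) or Chtop 3 (0.0751), and MRPS28 not without Alyref 2 (0.137), Alyref 3 (0.424) or Chtop 3 (0.181). Both calls were also lost with the replicate number as a block (adjusted p = 0.0527 for MRPL45 and 0.0562 for MRPS28) and with no filter on low counts (0.0792 and 0.0545).

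The 2 members called higher in Chtop were MRPS25 and MRPS30. MRPS25, a small subunit protein, had 7, 41 and 58 tags in Alyref, 4, 127 and 90 in Chtop, 0, 6 and 1 in Nxf1 and 0, 2 and 1 in Control. Relative to depth it was higher in Chtop 2 and Chtop 3 than in any Alyref library, and Chtop 1 rests on 4 tags. The log2 fold change of Alyref over Chtop was -1.44 (SE 0.27, edgeR adjusted p = 0.0013), and it was not called without Alyref 2 (adjusted p = 0.116) or with tags in several genes counted (-0.44, adjusted p = 0.262).

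Most of these MRPS25 tags, 84 of 106 in Alyref and 206 of 221 in Chtop, lay past the end of the canonical transcript, in exon sequence annotated for other isoforms (GRCh37 chr3:15083771-15090018, minus strand, 6248 nt). There Alyref had 5, 33 and 46 tags, Chtop 4, 117 and 85, Nxf1 0, 3 and 0 and Control 0, 2 and 1. This was 63.3 ± 12.1 (SD, n = 3) CPM in Alyref and 167 ± 71.4 (SD, n = 3) in Chtop. The canonical span, whose tags mostly also fall in an overlapping noncoding gene, went the other way in tags, with 229 in Alyref and 133 in Chtop, or 167 ± 26.8 (SD, n = 3) and 124 ± 15.95 (SD, n = 3) CPM. The call for MRPS25 is therefore one for the distal sequence and not for the canonical mRNA. Its most tagged window held 6 Alyref and 7 Chtop tags (GRCh37 chr3:15084088-15084117, minus strand).
MRPS25: cttgTTTATTccaactctcctcACcCccac

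MRPS30 is named for the small subunit but sits in the large subunit in structures. It had 5, 31 and 36 tags in Alyref, 1, 52 and 50 in Chtop, 0, 9 and 8 in Nxf1 and 0, 1 and 0 in Control. Chtop 2 and Chtop 3 exceeded the Alyref libraries, while Chtop 1 had a single tag. The log2 fold change of Alyref over Chtop was -0.93 (SE 0.32, edgeR adjusted p = 0.0487), the closest of the 6 calls to the threshold, and it was lost without Alyref 2 (adjusted p = 0.397), Alyref 3 (0.231) or Chtop 3 (0.248) and with the replicate block (0.0755), the size factors of DESeq2 (0.0571), no composition factor (0.0689), no filter (0.136) or tags in several genes counted (0.063). With exonic tags only the log2 fold change was -0.32 (adjusted p = 0.50). Of its tags 19 in Alyref and 37 in Chtop lay past the canonical 3′ end (GRCh37 chr5:44815617-44820530, plus strand).

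**Figure D5:**
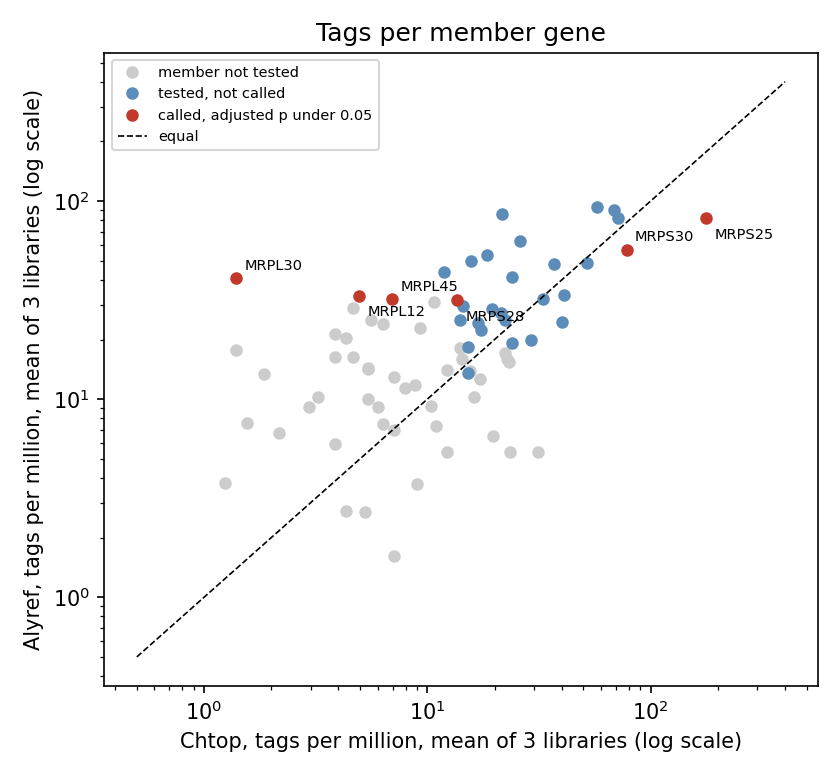
CPM for each member with a tag in both factors, Chtop (x) against Alyref (y), means of 3 libraries on log scales; grey members were not tested, blue were tested and not called, and red were called in the fit of the 6 Alyref and Chtop libraries. MRPL30, MRPL12, MRPL45 and MRPS28 lie above the line of equal levels, and MRPS25 and MRPS30 below it.

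When only exonic tags were fitted, 15 members were among 6281 genes tested. Called higher in Alyref were 6 members, 40.0%, against 16.3% of all genes, and 0 were called higher in Chtop, against 11.5%. The filter on low counts admitted MRPL30, MRPL12 and MRPL39, with 2, 7 and 10 exonic Chtop tags in all, through Alyref alone. Their calls carry that selection. With 15 members tested and this selection among them, these shares say little about the set. MRPL30 (log2 fold change 4.29) and MRPL12 (2.36) were called again, beside MRPL38 (1.33), MRPL39 (1.90), MRPL42 (1.09) and MRPS18B (1.64), with edgeR adjusted p-values of 5.65e-06 to 0.0391. MRPS30 was tested and not called, and MRPL45, MRPS28 and MRPS25 had too few exonic tags to be tested.

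Per length of canonical exon, over the 9 factor libraries, the 10 most densely tagged members were MRPS26 (34.5 CPM per kb), MRPL32 (33.9), MRPL12 (32.2), MRPL38 (21.2), MRPS30 (20.5), MRPS16 (19.9), MRPL37 (17.9), MRPL28 (17.5), MRPS21 (16.9) and MRPS34 (16.9). The median member was at 5.68. Their SDs ran from 13.1 to 45.8, so none of these neighbours differ beyond their spread. Without Nxf1 1 the order changed, with MRPL38 at 23.8, MRPS26 at 23.7, MRPS30 at 23.0, MRPL12 at 21.0 and MRPL32 at 20.2 CPM per kb. MRPS16, MRPS21 and MRPL28 have bacterial counterparts, and MRPS34, MRPL37 and MRPL38 are proteins of mitochondrial ribosomes alone. MRPL37 had 10, 39 and 38 tags in Alyref, 3, 31 and 40 in Chtop, 0, 8 and 5 in Nxf1 and 0, 4 and 2 in Control. MRPL38 had 12, 40 and 29 in Alyref, 0, 21 and 11 in Chtop, 0, 4 and 5 in Nxf1 and 0, 1 and 0 in Control. MRPL38 thus had fewer Chtop than Alyref tags in every replicate, and MRPL37 did not.

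Intronic tags on members numbered 887 in Alyref, 373 in Chtop, 203 in Nxf1 and 95 in Control. Exonic tags as a share of exonic and intronic tags were 62.0% ± 1.83 (SD, n = 3) in Alyref, 69.5% ± 8.69 (SD, n = 3) in Chtop, 55.6% ± 13.0 (SD, n = 3) in Nxf1 and 34.9% ± 24.1 (SD, n = 3) in Control. Chtop, Nxf1 and Control each spread too widely to be ordered, although Control 2 and Control 3 lay below every factor library. Over merged exons of all isoforms the Alyref share was 69.2%. The members with the most intronic tags were MRPS27 with 124, MRPS28 with 79, MRPL3 and MRPL1 with 64 each and MRPS5 with 61. MRPL3, MRPL1 and MRPS5 are proteins with bacterial counterparts, and MRPL1 forms the mobile stalk at the tRNA exit. Among members with at least 50 tags, the intronic share was highest in MRPS28 (92.9%), MRPL1 (83.1%), MRPL48 (82.4%), MRPL22 (67.7%) and MRPL45 (64.2%).

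No base considered held more than 6 tags. The single bases with most tags are shown with 10 bases on each side and the crosslinked base in capitals (GRCh37). They lie in an intron of MRPS34 (chr16:1822564-1822584, minus strand, 6 tags of 3 Alyref, 1 Chtop and 2 Nxf1), in exon 1 of MRPL20 in the 5′ UTR (chr1:1342663-1342683, minus strand, 3 Alyref and 2 Chtop), at 3 bases in the 3′ UTR of MRPS16 with 4 tags each, of which the first is printed (chr10:75009983-75010003, minus strand, 2 Alyref and 2 Nxf1), and past the canonical end of MRPS25 (chr3:15084098-15084118, minus strand, 2 Alyref and 2 Chtop). Further bases with 3 tags were tied and of those the rule took MRPL1, MRPL2 and MRPL4 in alphabetical order.
MRPS34: tgcccggcagTtcgatgccga
MRPL20: cgtgaccaccAtttccgaccc
MRPS16: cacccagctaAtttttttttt
MRPS25: tcttgtttatTccaactctcc
Over the members' exonic tags the crosslinked base was U for Alyref in 47.8% ± 3.55 (SD, n = 3), for Chtop in 50.5% ± 3.55 (SD, n = 3) and for Nxf1 in 55.6% ± 3.29 (SD, n = 3), and over other genes for Alyref in 50.7%, for Chtop in 54.2% and for Nxf1 in 48.0% ± 4.56 (SD, n = 3). Alyref and Chtop were within a spread of each other.

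Other genes of the pathway were read from lists. Of 5 further subunits with other names, all had tags and 2 were tested in the 12-library fit. PTCD3, a small subunit protein with pentatricopeptide repeats, had 15, 144 and 103 tags in Alyref, 7, 79 and 60 in Chtop, 1, 6 and 8 in Nxf1 and 1, 14 and 2 in Control. It was higher than Nxf1 in Alyref by 1.67 (SE 0.42, edgeR adjusted p = 0.0195) and in Chtop by 1.32 (SE 0.44, adjusted p = 0.0272) on the log2 scale. DAP3, a GTP-binding small subunit protein, had 152 Alyref, 53 Chtop, 12 Nxf1 and 7 Control tags, and AURKAIP1 15, 11, 5 and 0.

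Of 13 mitochondrial translation factors found, 1 was tested and none was called by edgeR. TUFM, the elongation factor that brings tRNA, had 119, 45, 12 and 2 tags in Alyref, Chtop, Nxf1 and Control. GFM2 and MRRF, which recycle ribosomes, had 110, 41, 8 and 6 and 80, 35, 7 and 2. Of 25 assembly factors 4 were tested. MTG1, a GTPase of large subunit assembly, had 362, 216, 23 and 8 tags and was higher than Nxf1 in Alyref by 1.59 (adjusted p = 0.012) and in Chtop by 1.25 (adjusted p = 0.0184). METTL17, of small subunit assembly, had 219, 52, 17 and 4 tags and was higher in Alyref than in Chtop by 1.62 (adjusted p = 0.00115), while DHX30, a helicase, had 192, 126, 38 and 7 tags. Of 15 genes of mitochondrial RNA stability and transcription 5 were tested. ELAC2, which trims tRNA ends, had 175, 40, 17 and 1 tags and was higher in Alyref than in Chtop by 1.62 (adjusted p = 0.00325). LRPPRC, which stabilises mitochondrial mRNA, had 425, 222, 46 and 27 tags and MTPAP, the mitochondrial poly(A) polymerase, 172, 128, 33 and 6, and FASTKD5 had none in a single gene.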

How the data were processed

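The deposited values are tag counts: per the labels and the study's methods, the authors removed phiX reads with Bowtie 1.1.2, extracted random barcodes (UMI-tools 0.5.3), ran Reaper for trimming and demultiplexing, aligned uniquely with STAR 2.4.2a to hg19, merged lanes, removed duplicates and took the most 5′ deletion or the base before the read as crosslinked. Here bases were assigned to GENCODE release 44 mapped to GRCh37, on the tag's strand, by canonical exon and intron. Tags in several genes (3.47% to 5.12% of a library) were left out, and 647 readthrough genes were dropped after they were seen to overlap members. Members and lists were chosen with earlier results of these data known.

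The main test was edgeR 4.0.16 in R 4.3.3 (quasi-likelihood, TMM, filterByExpr, all 12 libraries, Benjamini-Hochberg adjustment over all genes, threshold 0.05). The 6-library fit, the exon usage test (diffSpliceDGE, minimum 30 tags), a minimum of 10 tags, fits of replicates 2 and 3 only, densities without Nxf1 1 and shares without MRPS25 were added after seeing the data. DESeq2 1.42.0 was an alternative. The scripts were tested on simulated data. Named were called members, the 10 densest, the most intronic (5 by tags, 5 by share among those with 50 tags), the 10 most tagged bases (none of MRPS28, MRPL13 or MRPL15 considered), members without a tag and the top 3 and called genes of each pathway list. One sequence window is not reported here.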

Additional observations from a re-analysis of the deposited data

Results flagged for a closer look

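Single members whose tags or tag positions differed between factors were picked out for a closer look because the difference itself passed an edgeR test. In the fit of all 12 libraries this was MRPL42, lower in Chtop than in Nxf1 by a log2 fold change of -1.48. In the fit of the 6 Alyref and Chtop libraries the log2 fold change of Alyref over Chtop was 3.99 for MRPL30, 2.09 for MRPL12, 1.72 for MRPS28 and 1.70 for MRPL45, and it was -1.44 for MRPS25 and -0.93 for MRPS30. In the exon usage test the log2 shift towards exons before the last in Alyref was 6.87 for MRPL42, 4.16 for MRPS26, 4.06 for MRPS27 and 3.88 for MRPL32. MRPL30 and the shifts of MRPL42, MRPS26 and MRPS27 were called in all 6 fits that left out 1 library. In the fit of the 6 libraries MRPL30, MRPL12 and MRPL45 passed the filter on low counts through their Alyref libraries alone. Their differences carry that selection. The MRPS25 difference lay past the canonical 3′ end, 79 of the 85 tags of MRPS28 were intronic, and MRPL45 held 17 Control tags, 12 of them in Control 2.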

How the results depend on the processing

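Of 152 recomputed counts of called members 99 stayed within 1.5 times the reported count, and of 88 recomputed shares 83 moved by less than 1 SD. With no filter on low counts Chtop against Control, Alyref against Chtop and Chtop against Nxf1 had 2 calls each. With exonic tags only Chtop against Control had 0 and Alyref against Nxf1 1. With tags in several genes counted Alyref against Chtop had 1, Alyref against Nxf1 1 and Chtop against Nxf1 2. With only the libraries compared Alyref against Chtop had 6 and Chtop against Nxf1 2. With at least 10 tags in all libraries together Alyref against Control had 1, Chtop against Control 2, Alyref against Chtop 4 and Chtop against Nxf1 3, and with replicates 2 and 3 only these had 1, 3, 5 and 4. These filters and samples change how many members were tested.

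Leaving out 1 library gave 0 to 1 calls for Alyref against Control, 0 to 3 for Chtop against Control, 0 for Nxf1 against Control, 0 to 2 for Alyref against Chtop, 0 for Alyref against Nxf1 and 0 to 2 for Chtop against Nxf1, 1 to 7 in the fit of 6 libraries and 3 to 4 in the usage test. In that fit removing the filter gave 3 calls. Replicate numbers were not taken to pair the libraries in the main fits. Of same-number pairs 7 of 18 correlated above 0.1 (-0.286 to 0.508), against 5 of 36 other pairs (-0.553 to 0.498). Same-number pairs thus passed 0.1 more often, and the check does not exclude a pairing. Replicate 2 of every group ran on other HiSeq lanes than replicates 1 and 3, so number and lane go together in part. With the replicate block Alyref against Control had 1 call, MRPL45, instead of 0, the 6-library fit had 3 instead of 6, losing MRPL45, MRPS28 and MRPS30, and no other count of calls moved by more than 1.5 times. Over merged exons the members' share of protein-coding tags was 0.294% in Alyref, 0.206% in Chtop and 0.352% in Nxf1 and the exonic share in Alyref 69.2%, and without MRPS25 the Chtop share was 0.172%. Apart from these settings' own construction, the cause was not tested. Fits of the 6 libraries of a factor and Control, and of intronic tags alone, tested no member, and DESeq2 gave no adjusted p for members in Alyref against Control, Chtop against Control and Alyref against Nxf1. Depth limits all of this, since replicate 1 of Nxf1 and of Control held 12 and 10 member tags.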
